A study of Mus musculus with 18 samples.

Results

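Adhesion G protein-coupled receptors are a family of cell surface receptors, and their genes were followed here in 3 cell populations sorted from the mouse trachea. Members were taken by name: every symbol of the deposited count table made of Adgr, 1 subfamily letter and a number. This gave 27 genes of 26327 in the table, in the subfamilies A, B, D, E, F, G, L and V. No count was used to pick a gene, but the family as a whole was selected on the counts of these same 18 libraries. Counts over the family are therefore given as descriptions beside the share of all genes called, and the adjusted p-values, taken from a fit over all genes, describe single genes and are no independent evidence about the family.

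The mice were untreated, and all 3 populations came from a B6.Cg stock with the transgene Tg(RP23-268L19-EGFP)2Mik/J, a bacterial artificial chromosome that expresses eGFP from the choline acetyltransferase (Chat) locus. Brush cells (7 libraries), the chemosensory cells also called tuft cells, were sorted as EpCAM positive and eGFP positive cells without CD45, so what is called a brush cell here is a cell in which this transgene was active. EpCAM+ epithelial cells (7 libraries) were sorted as EpCAM positive cells without CD45, and this gate as worded does not shut out eGFP+ cells. CD45+ hematopoietic cells made up 4 libraries. Dispase followed by papain released the cells, propidium iodide marked dead cells for removal, and neither age nor sex is given in the sources used here. Whether each library of a group is from its own animals is not stated, so a p-value measures the spread between libraries, which may be technical in part.

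Adhesion receptors carry a long extracellular part built of adhesion modules, joined to a membrane part of the G protein-coupled type. In most of them the protein is cut during maturation at a site just outside the membrane, and a short stretch behind the cut, the tethered agonist, can switch the receptor on once the outer fragment is moved. They bind matrix proteins and proteins on neighbouring cells and are known for roles in synapses, myelination, fluid handling by epithelia and leukocyte adhesion. Brush cells themselves are known for taste-type signalling, for Chat and for the release of the cytokine IL-25.

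The labels were checked against marker genes chosen for each cell type. The 8 brush cell markers summed to 8666 to 10230 CPM (counts scaled to each library's TMM-adjusted size) in brush libraries, to 8.07 to 33.7 CPM in EpCAM+ libraries, with Il25 and Gfi1b at 0 there, and to at most 59.1 CPM in CD45+ libraries. The 5 pan-leukocyte markers summed to 5262 to 6088 CPM in CD45+ libraries and to 79.2 to 222 CPM in brush libraries. In EpCAM+ libraries the 7 basal markers summed to 3838 to 6082 CPM and the 7 club and goblet markers to 23880 to 129000 CPM. Brush libraries also held counts of these, at 52.4 to 203 CPM and 300 to 3071 CPM. Of these markers, Spdef was higher in brush (56.6 to 95.8 CPM) than in EpCAM+ libraries (2.16 to 12.75 CPM). Ngfr had similar medians, at 37.3 CPM in brush and 33.7 CPM in EpCAM+ libraries, and all the others had lower medians in brush libraries. Library totals ran from 371652 to 7438791 counts. Brush replicate 4 (838328 counts) and CD45+ replicate 1 (371652 counts) were the shallowest libraries, and together with EpCAM+ replicate 5 they were left out in an alternative. A count of 1 was worth 2.87 CPM in CD45+ replicate 1 and 1.89 CPM in brush replicate 4, against 0.110 to 0.544 CPM in the other libraries, so a 0 in those 2 libraries says little about low genes. The share of counts from ribosomal RNA was 24 to 63.5% in brush (highest in replicate 4), 12.2 to 34.1% in EpCAM+ and 20.7 to 43.4% in CD45+ libraries. With these genes left out of the fit, all 37 calls of the members described below were still made. In bulk libraries such as these, fewer cells of a type and less RNA per cell cannot be told apart.

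Of the 26 members described, 17 had enough counts for the test (a minimum of 2.433 CPM in at least 4 libraries). The other 9 were Adgra1, Adgra2, Adgrd1, Adgre4, Adgrf1, Adgrf4, Adgrg4, Adgrg7 and Adgrl4, and they are described at the end. Of these 17, 4 (Adgrb1, Adgrb2, Adgrb3 and Adgrf2) passed the minimum through brush libraries alone and 3 (Adgre1, Adgrg3 and Adgrg5) through CD45+ libraries alone. A gene that passed through 1 group alone had to be high there, so no count over the tested members supports a direction. Adgrv1 needed brush and EpCAM+ libraries together.

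None of the 17 was called higher in EpCAM+ cells than in both other populations, beside 10.1% of all 13418 genes tested. In brush cells 8 were higher than in both other populations: Adgrb1, Adgrb2, Adgrb3, Adgrf2, Adgrg2, Adgrg6, Adgrl1 and Adgrl3. Of all genes tested, 11.3% had this pattern. In CD45+ cells 4 members, beside 13% of all genes, were higher than in both other populations: Adgre1, Adgre5, Adgrg3 and Adgrg5. Another 4 (Adgra3, Adgrf5, Adgrg1 and Adgrl2) were higher in brush and in EpCAM+ cells than in CD45+ cells, with no call between the epithelial populations, beside 7.16% of all genes. Adgrv1 was called in no comparison, like 36.3% of all genes.

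Promoter sequences are shown for a pair of brush-high receptors and a pair of CD45-high receptors. None of the 4 windows overlaps an annotated exon. The same held for the windows of Adgrb3 and Adgrl1, also brush-high, which are not printed. Each window is the 250 bases before the gene's start in RefSeq on GRCm38.p6, where 20 of the 26 members had an entry and Adgra2, Adgrb1, Adgrd1, Adgre1, Adgre5 and Adgrf2 had none. Capitals mark the GC box GGGCGG or its reverse complement CCGCCC, searched on both strands. The windows are chr4:129984620-129984869 (+) for Adgrb2, chrX:160390440-160390689 (+) for Adgrg2, chr8:94923444-94923693 (+) for Adgrg5 and chr8:95017442-95017691 (+) for Adgrg3.
Adgrb2: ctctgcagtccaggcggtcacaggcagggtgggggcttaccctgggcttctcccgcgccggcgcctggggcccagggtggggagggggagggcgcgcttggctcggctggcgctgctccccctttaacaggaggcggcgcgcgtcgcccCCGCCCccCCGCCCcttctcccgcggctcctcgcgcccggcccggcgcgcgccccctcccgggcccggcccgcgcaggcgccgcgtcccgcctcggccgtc
Adgrg2: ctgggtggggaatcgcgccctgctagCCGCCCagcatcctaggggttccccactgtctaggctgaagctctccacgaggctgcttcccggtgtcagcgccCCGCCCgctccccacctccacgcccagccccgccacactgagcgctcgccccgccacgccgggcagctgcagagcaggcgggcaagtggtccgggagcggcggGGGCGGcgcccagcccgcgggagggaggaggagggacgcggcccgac
Adgrg5: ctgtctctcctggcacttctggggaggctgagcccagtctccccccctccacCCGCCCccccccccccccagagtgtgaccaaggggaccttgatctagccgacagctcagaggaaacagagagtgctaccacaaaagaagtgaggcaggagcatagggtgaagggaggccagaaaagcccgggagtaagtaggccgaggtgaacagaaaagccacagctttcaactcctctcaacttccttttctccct
Adgrg3: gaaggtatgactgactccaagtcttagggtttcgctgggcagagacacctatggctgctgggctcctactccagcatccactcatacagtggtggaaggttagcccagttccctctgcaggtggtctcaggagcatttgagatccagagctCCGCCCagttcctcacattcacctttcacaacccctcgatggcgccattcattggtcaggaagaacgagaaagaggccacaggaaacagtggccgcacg

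The Adgrb2 window was 81.6% G or C with 35 CpG dinucleotides and 2 GC boxes, and the Adgrg2 window 75.6% with 26 CpG and 3 GC boxes. The Adgrg5 window held 4 CpG and 1 GC box at 58.8% G or C, and the Adgrg3 window 7 CpG and 1 GC box at 55.2%. The median over 32851 windows of the same length was 6 CpG and 52.4% G or C. Among the other brush-high members Adgrg6, Adgrl1 and Adgrl3 held 32, 21 and 36 CpG, and Adgrb3 held 14 at 59.2% G or C. Of the members higher in both epithelial populations than in CD45+ cells, Adgra3 held 25 CpG and Adgrf5, Adgrg1 and Adgrl2 held 5, 4 and 3. Some of these windows overlap exons, and the difference between the 2 printed pairs depends on the genes picked. A GC box stood in 32.7% of those windows and in 11 of the 20 member windows. The octamer ATGCAAAT or ATTTGCAT, the letters bound by POU factors such as Pou2f3 of brush cells, stood in 1.6% of all windows and in 0 of the 20 member windows. Both matches are descriptions of these letters in these windows.

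Adgrf2, a member of the F subfamily with no ligand named here, was low and uneven in brush cells. Its brush libraries ran from 0 CPM in replicate 4, the shallowest, through a median of 7.04 to 12.8 CPM, its EpCAM+ libraries held counts in replicates 3 and 4 (0.372 and 2.16 CPM), and its CD45+ libraries in replicate 2 (0.748 CPM). The groups overlapped through the brush library at 0. The log2 fold change against EpCAM+ cells was 3.77 ± 0.84 (SE; adjusted p = 0.000907, edgeR's quasi-likelihood test with Benjamini-Hochberg adjustment over all genes, as for every adjusted p here). Without EpCAM+ replicate 4, which leaves 2 counts in that group, the ratio of pooled counts was 90.5 (95% counting interval 24.8 to 752, which covers counting error only). Against CD45+ cells the ratio of pooled counts was 45.7 (15.5 to 223; adjusted p = 0.00331).

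The 3 brain-specific angiogenesis inhibitor genes Adgrb1, Adgrb2 and Adgrb3, named for their discovery in brain and known for work at synapses, were all higher in brush cells than in both other populations. Adgrb2 was the most abundant of them in brush libraries per length, at a median of 8.74 TPM (the authors' RSEM estimate, which allows for transcript length) against 2.76 for Adgrb3 and 1.90 for Adgrb1. The CPM of Adgrb2 in brush libraries were 11.2 at the lowest, 26.1 at the median and 50.6 at the highest. Its counts elsewhere were 3 in all in EpCAM+ libraries (replicates 4 and 6) and 2 in all in CD45+ libraries (replicate 3). The groups lay far apart. The ratio of pooled counts was 253 against EpCAM+ cells (86.3 to 1230; adjusted p = 6.75e-10) and 218 against CD45+ cells (60.0 to 1800; adjusted p = 4.12e-08).

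Adgrb1, whose protein binds phosphatidylserine on dying cells and signals through Elmo and Dock1, was counted in every brush library, at 4.28 to 9.39 CPM with a median of 7.62. EpCAM+ libraries held 0 to 3.46 CPM with a median of 0.270, and all 4 CD45+ libraries were at 0. The highest EpCAM+ library, replicate 6, lay just under the lowest brush library, so the groups did not overlap. The log2 fold change against EpCAM+ cells was 3.44 ± 0.69 (adjusted p = 0.000437) and 4.73 without that library, while brush cells were at least 42.6-fold higher than CD45+ cells against a floor of 3 counts over that group (adjusted p = 7.69e-05). Adgrb3, known for binding C1q-like proteins at synapses, ran from 4.88 through 8.71 to 10.7 CPM in brush libraries and from 0 to 2.02 CPM in EpCAM+ libraries, with 4 of 7 at 0. The CD45+ values were 0, 0.249, 0.110 and 0.762 CPM, and again no brush library overlapped another group. Its log2 fold change was 3.74 ± 0.73 against EpCAM+ cells (adjusted p = 0.000210), 4.37 without EpCAM+ replicate 6, and 4.58 ± 1.05 against CD45+ cells (adjusted p = 0.000891).

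Adgrg2, first described in the epididymis and known for fluid handling there, was high in brush cells and also counted in every EpCAM+ library. Brush libraries held 163 CPM at the lowest, 252 at the median and 328 at the highest. EpCAM+ libraries held 53.6 at the lowest, 60.7 at the median and 155 at the highest, the last in replicate 5, and the CD45+ values were 0, 0.997, 2.08 and 0 CPM. The lowest brush library lay just above EpCAM+ replicate 5 and well above the other 6 EpCAM+ libraries. The mean was 241 ± 55.2 CPM (SD, n = 7) in brush and 75.2 ± 36.0 (n = 7) in EpCAM+ cells (log2 fold change 1.68 ± 0.35, adjusted p = 0.000452), and the EpCAM+ mean was 61.8 ± 7.14 without replicate 5. EpCAM+ cells, too, were above CD45+ cells, with a log2 fold change of 6.05 ± 0.61 over CD45+ cells (adjusted p = 2.16e-08) beside 7.73 ± 0.64 for brush over CD45+ cells (adjusted p = 1.13e-09).

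Adgrg6, known as Gpr126 and for its part in the myelination of peripheral nerves, had 1 brush library far above the rest. Replicate 2 held 234 CPM and the other brush libraries 41.6 to 74.0 CPM. EpCAM+ libraries held 4.01 to 9.51 CPM with a median of 7.22, and the CD45+ values were 2.87, 10.2, 8.10 and 11.7 CPM. No brush library overlapped another group, and EpCAM+ and CD45+ libraries overlapped each other. The brush mean was 82.8 ± 67.8 CPM with replicate 2 and 57.6 ± 13.8 without it. The log2 fold change was 3.62 ± 0.39 against EpCAM+ cells (adjusted p = 1.03e-07) and 3.19 ± 0.50 against CD45+ cells (adjusted p = 1.05e-05), and EpCAM+ against CD45+ cells gave −0.42 ± 0.44 (adjusted p = 0.495).

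The latrophilins Adgrl1, Adgrl2 and Adgrl3, receptors for teneurins and FLRT proteins, did not move alike. Adgrl3 ran from 23.9 through 29.4 to 47.6 CPM in brush libraries and from 0.308 through 8.90 to 11.2 CPM in EpCAM+ libraries, and the CD45+ values were 0, 0.249, 0 and 0.254 CPM. The 3 groups did not overlap for Adgrl3. Its log2 fold change against EpCAM+ cells was 2.21 ± 0.44 (adjusted p = 0.000258), and against the 2 counts of the CD45+ group the ratio was 272 (75.2 to 2250; adjusted p = 2.38e-07). Adgrl1 differed least among the 8 brush-high members, at 8.94 to 16.0 CPM in brush libraries (median 11.3) and 3.39 to 9.10 CPM in EpCAM+ libraries (median 5.48). Its highest EpCAM+ library, replicate 3, lay within the brush range, and the log2 fold change was 1.05 ± 0.32 (adjusted p = 0.0120). The CD45+ values of Adgrl1 were 5.75, 1.99, 6.02 and 2.79 CPM, lower than every brush library, and brush against CD45+ cells gave 1.59 ± 0.43 (adjusted p = 0.00358). Adgrl2 overlapped between brush (6.89 to 24.5 CPM, median 12.6) and EpCAM+ libraries (7.10 to 16.2, median 12.3), with a log2 fold change of 0.32 ± 0.35 (adjusted p = 0.501). Exons of Adgrl1 overlap an opposite-strand gene of the count table, Gm10644, and no source used here gives the strand setting of the counting, so reads of the overlap cannot be told apart.

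**Figure D1:**
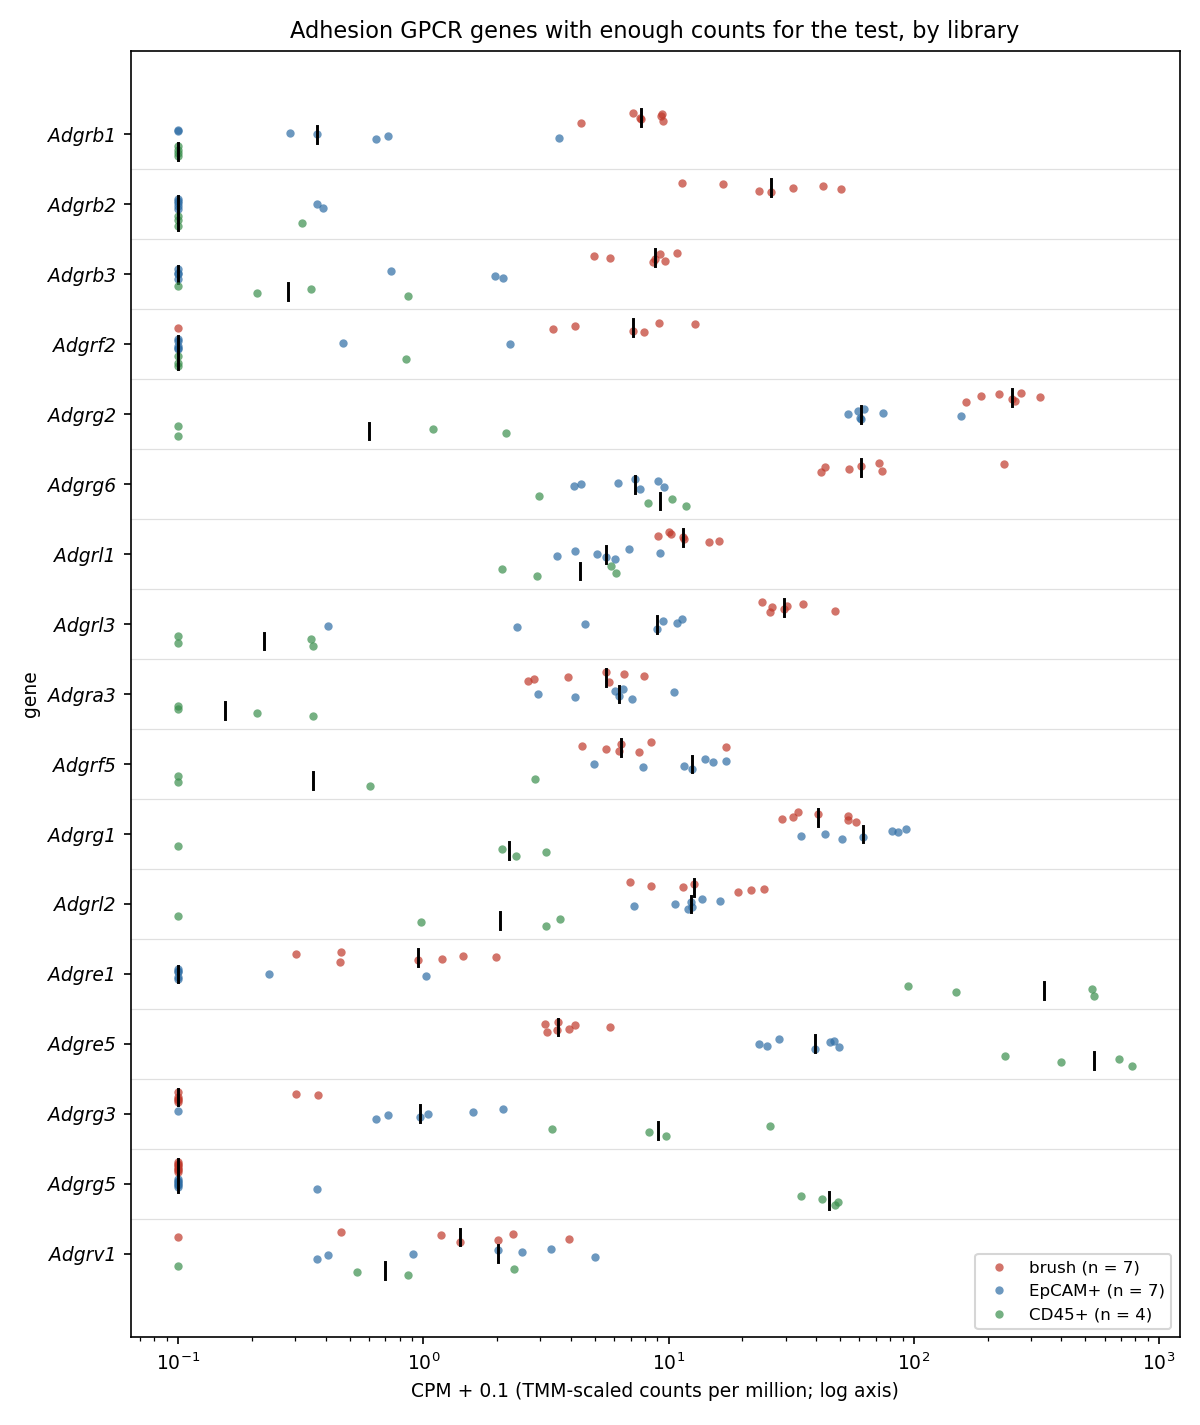
Each point is the CPM of 1 library plus 0.1 on a log axis, for 17 tested genes, with red for brush (n = 7), blue for EpCAM+ (n = 7), green for CD45+ (n = 4) and a black line at the group median; points at the left edge are libraries with 0 counts. Adgrb2 has its brush points far to the right of the rest, Adgre1 and Adgrg5 their CD45+ points, and the epithelial points of Adgrg1 and Adgrl2 overlap.

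In brush against EpCAM+ cells, 8 of the 17 tested members were higher, beside 18.3% of all 13418 genes tested, and 4 of these 8 had passed the minimum through brush libraries alone. The 4 that had not were Adgrg2, Adgrg6, Adgrl1 and Adgrl3. A further 2 members, Adgre5 and Adgrg3, were lower in brush cells, beside 22% of all genes, and 7 were not called. The median log2 fold change over the 17 was 1.05, beside −0.06 over all genes tested, and 7 of the 17 had groups whose CPM did not overlap, beside 20.3% of all genes tested. Over all genes 40.3% were called in either direction.

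Adgre5, also called CD97 and known as a leukocyte receptor for Cd55, was graded over the 3 populations. Brush libraries held 3.04 to 5.66 CPM with a median of 3.44, and EpCAM+ libraries 23.3 to 49.6 CPM with a median of 39.6. The CD45+ values were 236, 688, 397 and 777 CPM in replicates 1 to 4, and no 2 groups overlapped. The log2 fold change of brush against EpCAM+ cells was −3.35 ± 0.32 (adjusted p = 1.59e-08), that of brush against CD45+ cells −7.19 ± 0.38 (adjusted p = 4.32e-12) and that of EpCAM+ against CD45+ cells −3.83 ± 0.32 (adjusted p = 1.69e-09). The brush mean of Adgre5 was 0.722% of its CD45+ mean. Leukocyte markers in brush cells stood at unequal shares of their CD45+ means, with 2.18% for Ptprc, the gene of CD45 itself, 0.0608% for Coro1a and 11.2% for Lcp1, and the part of leukocyte RNA in the brush level of Adgre5 was not tested. The 5 pan-leukocyte markers summed to 8.76 to 41 CPM in EpCAM+ libraries, less than in any brush library. Most of these sums was Lcp1, at 8.76 to 39.95 CPM in EpCAM+ and 45.25 to 209 CPM in brush libraries. Cd52 alone of the 5 went the other way, with a median of 0.809 CPM in EpCAM+ and 0 in brush libraries. The part of leukocyte RNA in the EpCAM+ level of Adgre5 was not tested either. Exons of Adgre5 overlap those of Ddx39 on the opposite strand, with the same limit as for Adgrl1.

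Adgre1 encodes the macrophage antigen F4/80. Its CD45+ values were 94.8, 531, 149 and 545 CPM in replicates 1 to 4, its brush libraries held 0.203 to 1.89 CPM with a median of 0.853, and its EpCAM+ libraries held 0 CPM in 5 of 7, with 0.135 CPM in replicate 4 and 0.926 CPM in replicate 5. No CD45+ library overlapped another group. The log2 fold change was −8.91 ± 0.64 for brush (adjusted p = 1.60e-10) and −10.99 ± 0.72 for EpCAM+ cells (adjusted p = 4.11e-11), each against CD45+ cells. Without EpCAM+ replicate 5, which leaves 1 count in EpCAM+ cells, the ratio of CD45+ to EpCAM+ counts was 8840 (1590 to 349000). The macrophage and dendritic markers, 8 of 8 counted, summed to 3735, 4835, 2085 and 9085 CPM in CD45+ replicates 1 to 4, and the part of the macrophage share in the spread of Adgre1 was not tested. Brush against EpCAM+ cells gave 2.08 ± 0.86 (adjusted p = 0.0584). The difference was called without EpCAM+ replicate 5 (adjusted p = 0.00909), where 1 EpCAM+ count is left and the ratio of pooled counts was 16.5 (2.61 to 689), and without brush replicate 2 (2.27) or CD45+ replicate 1 (2.08). It was also called with the replicate number as a block (2.70, adjusted p = 0.0117), with DESeq2 (2.32, adjusted p = 0.0274) and with RSEM expected counts (3.97, adjusted p = 0.0176). In 20 of 27 alternatives it was not called, with log2 fold changes down to 1.81. The comparison rests on 18 counts in brush and 4 in EpCAM+ libraries. The same marker list summed to 14.2 to 45.2 CPM in brush libraries, with Flt3 at 0, and to 5.79 to 22.5 CPM in EpCAM+ libraries, with C1qa, C1qb, C1qc and Flt3 at 0, and its part in the small counts of Adgre1 was not tested.

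Adgrg5, Adgrg1 and Adgrg3 lie next to each other in this order on the forward strand of chromosome 8, with 31.5 kb between Adgrg5 and Adgrg1, 3.5 kb between Adgrg1 and Adgrg3, and no protein-coding gene in either gap (GENCODE annotation of GRCm38). Adgrg5 spans chr8:94923694-94943280, Adgrg1 chr8:94974751-95014217 and Adgrg3 chr8:95017692-95045250. The outer genes were highest in CD45+ cells and the middle one in the epithelial populations. Adgrg5, a leukocyte receptor, held 34.5, 42.1, 49.2 and 47.8 CPM in CD45+ libraries, 0 in all 7 brush libraries and 1 count in EpCAM+ replicate 7. It was thus at least 463-fold higher in CD45+ than in brush cells against a floor of 3 counts over the brush group (adjusted p = 1.05e-09), and its ratio to EpCAM+ cells was 1430 (256 to 56500; adjusted p = 1.02e-09). Relative to the mean, its CD45+ values lay closer together than those of the other 3 CD45-high members.

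Adgrg1, known as Gpr56 and for its part in brain cortex formation and in cytotoxic lymphocytes, held 28.9 to 57.8 CPM in brush libraries (median 40.5) and 34.6 to 92.6 CPM in EpCAM+ libraries (median 62.0). The CD45+ values were 0, 1.99, 3.07 and 2.29 CPM, below every epithelial library. The log2 fold change was 4.19 ± 0.43 for brush (adjusted p = 3.06e-08) and 4.76 ± 0.44 for EpCAM+ cells (adjusted p = 6.64e-09) over CD45+ cells. Brush against EpCAM+ cells gave −0.57 ± 0.27 (adjusted p = 0.101), with overlap, and −0.68 (adjusted p = 0.0356) without EpCAM+ replicate 5. Adgrg3, known as Gpr97 and from granulocytes, held 25.9, 3.24, 8.21 and 9.65 CPM in CD45+ replicates 1 to 4. Its EpCAM+ libraries held 0 to 2.01 CPM with a median of 0.865, and its brush libraries 2 counts in all, in replicates 2 and 3. The CD45+ mean of Adgrg3 was 11.7 ± 9.80 CPM with the shallow replicate 1 and 7.04 ± 3.36 without it. Replicate 1 held 9 counts of Adgrg3, and by TPM it was the lowest (0.67, 1.17, 2.27 and 2.82 in replicates 1 to 4). The 6 granulocyte markers summed to 118, 295, 543 and 313 CPM in the same order, and their part in the level of Adgrg3 was not tested. EpCAM+ against CD45+ cells gave −3.49 ± 0.70 (adjusted p = 0.000266), the ratio of CD45+ to brush counts was 115 (31.1 to 956; adjusted p = 1.52e-06), and that of EpCAM+ to brush counts was 13.1 (3.30 to 114; adjusted p = 0.00533) with overlapping groups.

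**Figure D2:**
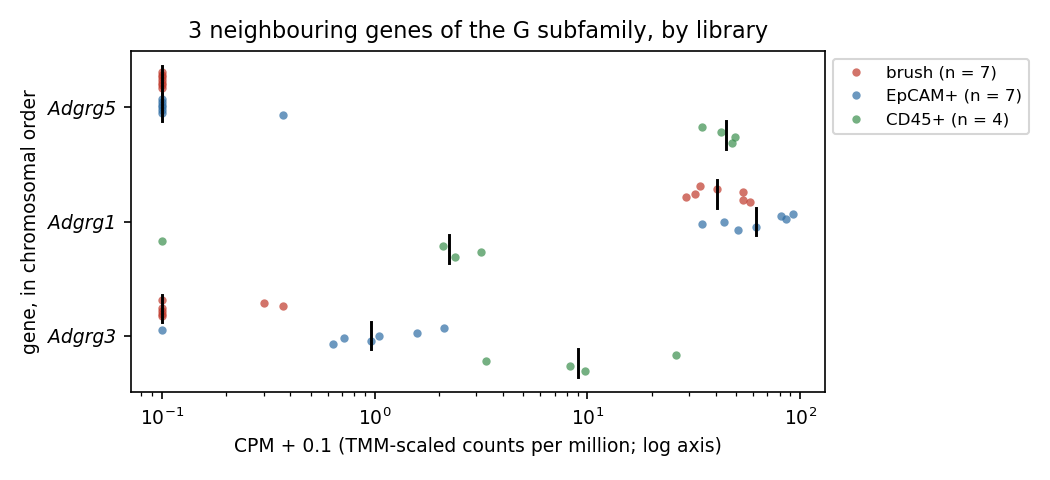
Each point is the CPM of 1 library plus 0.1 on a log axis for the adjacent genes Adgrg5, Adgrg1 and Adgrg3, from top to bottom in chromosomal order, with colours and median lines as in the plot of all tested genes. The CD45+ points lie to the right for Adgrg5 and Adgrg3 and to the left for Adgrg1.

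Adgrf5 and Adgra3 complete the set that was higher in both epithelial populations than in CD45+ cells. Adgrf5, known as Gpr116 and for surfactant control in the lung, held 4.33 to 17.0 CPM in brush libraries (median 6.28) and 4.85 to 17.0 CPM in EpCAM+ libraries (median 12.4), with CD45+ values of 0, 2.74, 0 and 0.508 CPM. The epithelial ranges coincided at the top through brush replicate 4 alone, the shallowest brush library. Without it the brush mean was 6.35 CPM, against 11.8 CPM in EpCAM+ cells, and the next highest brush library, at 8.34 CPM, still lay within the EpCAM+ range. With all libraries brush against EpCAM+ cells gave −0.68 ± 0.48 (adjusted p = 0.277). The difference was not called in any of 28 alternatives, which gave −0.88 to −0.57 and included the fit without brush replicate 4. Over CD45+ cells Adgrf5 was higher by 2.95 ± 0.74 in brush (adjusted p = 0.00213) and by 3.64 ± 0.75 in EpCAM+ cells (adjusted p = 0.000332) on the log2 scale. Without CD45+ replicate 2, which leaves 2 counts in that group, the ratios of pooled counts were 46.2 (12.6 to 384) and 75.4 (20.7 to 625). Adgrf5 is also a gene of blood vessels. The 10 endothelial markers summed to 28.3 to 103 CPM in brush libraries, of which Tek alone gave 20.7 to 101 CPM and Cdh5 and Cldn5 were at 0, and to 1.49 to 8.95 CPM in EpCAM+ libraries, with Cdh5 and Tie1 at 0. Adgra3, an orphan receptor, held 2.56 to 7.86 CPM in brush and 2.83 to 10.4 CPM in EpCAM+ libraries, with 2 counts in the CD45+ group. Its ratio to CD45+ cells was 46.2 (12.6 to 385; adjusted p = 4.94e-06) in brush and 51.8 (14.1 to 431; adjusted p = 2.66e-06) in EpCAM+ cells, and brush against EpCAM+ cells gave −0.28 ± 0.39 (adjusted p = 0.610). Adgrl2 belonged to the same set, with log2 fold changes over CD45+ cells of 2.75 ± 0.51 in brush (adjusted p = 0.000104) and 2.43 ± 0.51 in EpCAM+ cells (adjusted p = 0.000387).

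Adgrv1, the very large receptor of the ankle links of hair cells, was low in every population. It held 0 to 3.81 CPM in brush, 0.270 to 4.90 CPM in EpCAM+ and 0 to 2.24 CPM in CD45+ libraries, with overlap throughout. Its log2 fold changes were −0.29 ± 0.65 for brush against EpCAM+ (adjusted p = 0.765), 0.62 ± 0.84 for brush against CD45+ (adjusted p = 0.582) and 0.90 ± 0.83 for EpCAM+ against CD45+ cells (adjusted p = 0.430).

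In brush against CD45+ cells, 12 of the 17 tested members were higher, beside 23.4% of all genes, 4 were lower, beside 22.4%, and 1 was not called. Of the 12, 4 had passed the minimum through brush libraries alone, and of the 4, 3 had through CD45+ libraries alone. The median log2 fold change over the 17 was 3.19, beside 0.05 over all genes tested, and 15 had groups without overlap, beside 30.5% of all genes tested (45.8% were called in either direction). In EpCAM+ against CD45+ cells, 7 members were higher (Adgra3, Adgrb1, Adgrf5, Adgrg1, Adgrg2, Adgrl2 and Adgrl3), beside 22.5%, and 4 were lower, beside 18.1%, of which 3 had passed through CD45+ libraries alone. The median there was 0.90, beside 0.08, and 10 had groups without overlap, beside 27.2% (40.5% were called in either direction). The comparisons share libraries and are not independent of each other. With few counts in the CD45+ group, single CD45+ libraries set the size of several differences. In brush against CD45+ cells the CD45+ group held 0 counts of Adgrb2 without replicate 3 and 0 of Adgrf2 without replicate 2, and brush cells were then at least 69.0-fold and at least 35.2-fold higher against a floor of 3 counts over the group. Adgrg2 went to a log2 fold change of 8.92 without replicate 3. The call of Adgrb1 in EpCAM+ against CD45+ cells (at least 3.63-fold higher, adjusted p = 0.0174) was lost without CD45+ replicate 3 (at least 1.73-fold, adjusted p = 0.0697), with the replicate number as a block (adjusted p = 0.0778) and with voom (adjusted p = 0.282).

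**Figure D3:**
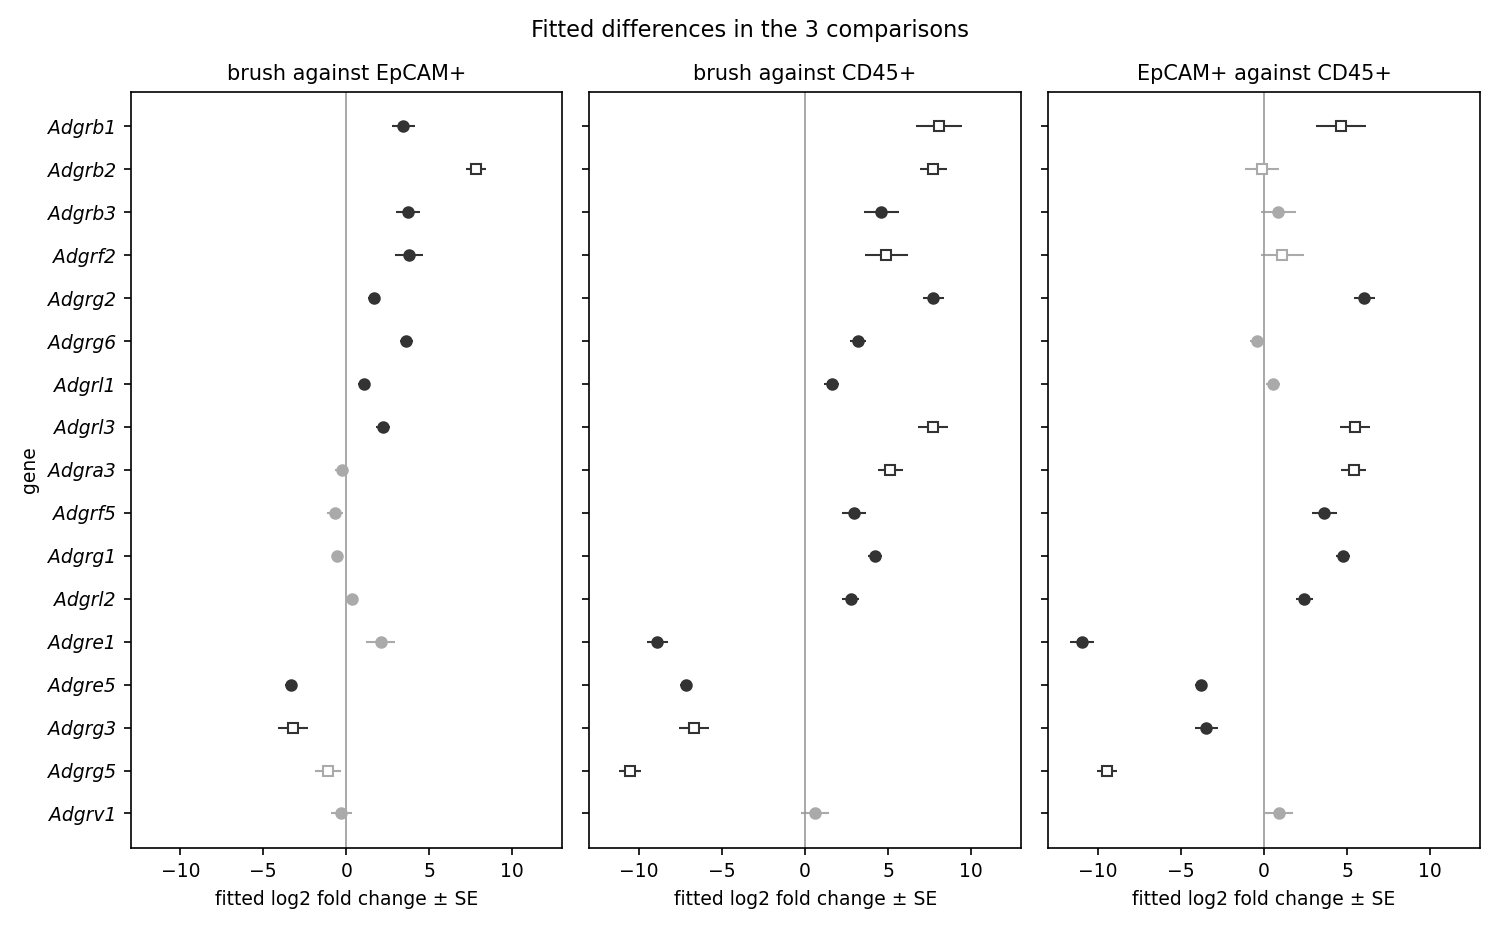
Fitted log2 fold change ± SE of 17 tested genes in the 3 comparisons; black symbols passed an adjusted p of 0.05 and grey ones did not, and open squares mark genes with 3 or fewer counts in 1 of the groups, whose fitted size depends on the prior count. Genes from Adgrb1 to Adgrl3 lie right of 0 in both brush panels, and Adgre5 lies left of 0 in all 3 panels.

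Levels of different members were compared on the TPM scale, which divides by transcript length. The 26 members summed to 165 ± 46.5 TPM in brush libraries, 64.4 ± 20 TPM in EpCAM+ libraries and 300 ± 165 TPM in CD45+ libraries (SD; n = 7, 7 and 4). In brush cells the order by median TPM was Adgrg2 (59.8; range 45.2 to 118), Adgrg6 (22.6; 5.79 to 90.6), Adgrl3 (18; 7.86 to 25.9), Adgrg1 (15.4; 5.31 to 27.4) and Adgrb2 (8.74; 3.23 to 10.3). The ranges of neighbours in this order overlapped at each step, that of Adgrg2 and Adgrg6 through brush replicate 2 alone. In the other 6 brush libraries Adgrg6 held 5.79 to 26.2 TPM, less than Adgrg2 in any library. Within single brush libraries Adgrg6 was above Adgrl3 in 4 of 7, Adgrl3 above Adgrg1 in 6 of 7 and Adgrg1 above Adgrb2 in 6 of 7. Adgrg2 took 47.6 ± 15.5% of the summed TPM of a brush library and Adgrg6 15.6 ± 11.8%, with 40.9% in replicate 2.

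In EpCAM+ cells the order was Adgre5 (median 18.2 TPM; range 2.90 to 28.7), Adgrg1 (14.6; 3.40 to 25.8) and Adgrg2 (13.9; 9.96 to 31.3), with overlapping ranges, and then Adgrl3 (3.55; 0.280 to 4.81). Within single EpCAM+ libraries, however, Adgre5 was above Adgrg1 in 1 of 7. Adgrg2 took 16.4 to 38.5% of the summed TPM in 6 EpCAM+ libraries and 77.9% in replicate 5. In CD45+ cells the E subfamily took 91.6 ± 2.47% of the summed TPM, most of it from Adgre5 (66.4 ± 7.39%) and Adgre1 (23.6 ± 8.16%), and Adgrg5 followed with 5.98 ± 1.95%. The E subfamily took 24.0 ± 10.8% in EpCAM+ and 1.19 ± 0.478% in brush libraries. The shares within the CD45+ group were steadier than the sums, which ran from 88.6 TPM in replicate 1 to 449 TPM.

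**Figure D4:**
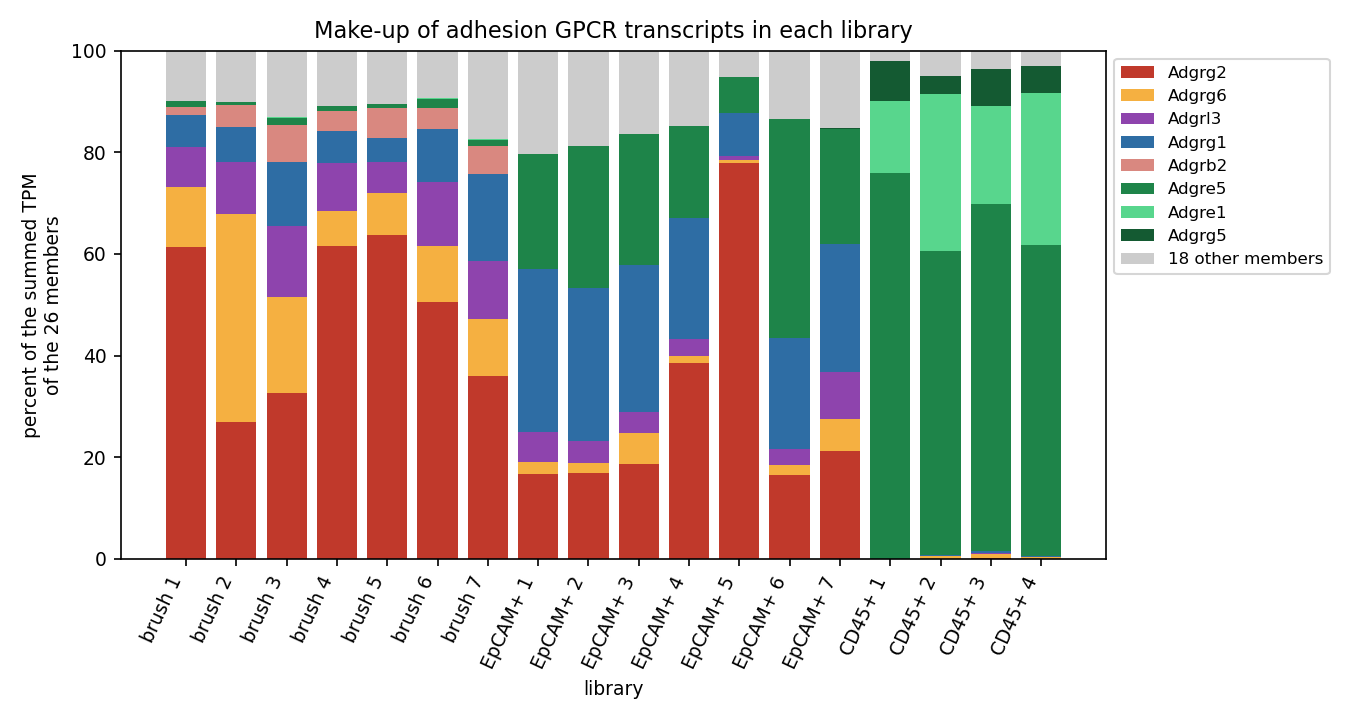
Stacked bars give the percent of the summed TPM of the 26 members taken by 8 named genes and by the 18 others, for each of the 18 libraries. Adgrg2 fills 27.0 to 63.7% of the brush bars (Adgrg6 takes 40.9% in replicate 2), Adgre5 and Adgre1 most of the CD45+ bars, and Adgrg2 takes 77.9% in EpCAM+ replicate 5.

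The 9 untested members were low in most libraries. Adgre4, a receptor of myeloid cells, was the exception: it held 0, 74.5, 13.5 and 27.9 CPM in CD45+ replicates 1 to 4, 2 counts in all in brush libraries and 7 in all in EpCAM+ libraries. It missed the minimum because CD45+ replicate 1 was at 0, and without that library it was called lower in brush and in EpCAM+ cells. Adgrd1 (57 counts in all 18 libraries), Adgra2 (78) and Adgrf4 (78) were counted at low level in each population, with means of at most 2.37 CPM, and exons of Adgra2 overlap Brf2 on the opposite strand. Adgrd1 and Adgrf4 were counted in 6 and 5 of 7 brush libraries. Totals over the 18 libraries were 13 counts for Adgrg4, 10 for Adgrg7, 9 for Adgra1, 8 for Adgrl4 and 2 for Adgrf1. All 8 counts of Adgrl4, a receptor of blood vessel endothelium, came from CD45+ replicate 3, and 0 of 7 brush libraries and 0 of 7 EpCAM+ libraries held a count. Of the 26 members, 13 were counted in all 7 brush libraries, and Adgrf1, Adgrg4, Adgrg5 and Adgrl4 in none of them. Adgrf4 and Adgrf2 are neighbours on chromosome 17 with 16.7 kb between them, as are Adgrf1 and Adgrf5 with 35.7 kb, and in each of these pairs 1 gene was tested and the other fell under the minimum.

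The cadherin EGF LAG receptors Celsr1, Celsr2 and Celsr3, which carry the planar polarity of epithelia, belong to the family by structure under another symbol. Celsr1 held 42.2 ± 12.7 CPM in brush and 59.4 ± 23.7 CPM in EpCAM+ cells (−0.51 ± 0.34, adjusted p = 0.235), and Celsr2 16.5 ± 2.62 and 27.2 ± 4.07 CPM (−0.72 ± 0.30, adjusted p = 0.0626). Celsr2 was called lower in brush cells without EpCAM+ replicate 5 (adjusted p = 0.0375), without CD45+ replicate 2 (0.0345) and without CD45+ replicate 4 (0.0252). Both were higher in brush than in CD45+ cells, by 3.55 ± 0.50 (adjusted p = 3.15e-06) and 4.28 ± 0.51 (adjusted p = 2.90e-07) on the log2 scale. Celsr3 did not pass the minimum. Thus 2 of 3 were tested, and 0 were called in brush against EpCAM+ cells, beside 40.3% of all genes. Both tested genes were higher in brush than in CD45+ cells, beside 23.4% of all genes. Counts over 2 tested genes are too few to set against such shares.

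Of 38 listed ligands and binding partners of adhesion receptors, 23 were tested. In brush against EpCAM+ cells 5 were higher (21.7%, beside 18.3% of all genes tested) and 9 lower (39.1%, beside 22%), with a median log2 fold change of −0.48 beside −0.06 over all genes tested. Those that were higher included Unc5d, a netrin receptor that joins Adgrl3 and Flrt proteins in a complex, at 31.5 CPM in brush cells and 3 or fewer counts in the EpCAM+ group (ratio 473, 131 to 3910; adjusted p = 1.48e-10), Nrxn3, a neurexin (7.32 ± 0.59, adjusted p = 1.15e-09), and Tenm2, a teneurin (1.57 ± 0.37, adjusted p = 0.00157). Those that were lower included Tgm2, a ligand of Adgrg1 (−5.85 ± 0.49, adjusted p = 1.77e-09), Flrt2, a latrophilin ligand (−4.90 ± 0.60, adjusted p = 5.38e-07), and Wnt7b, whose signal is relayed by Adgra2 (−4.45 ± 0.72, adjusted p = 2.31e-05). Cd55, the ligand of Adgre5, held 91.8 CPM in brush and 93.1 CPM in EpCAM+ cells (−0.03 ± 0.31, adjusted p = 0.967). Against CD45+ cells 8 of the 23 were higher in brush cells (34.8%, beside 23.4% of all genes) and 4 lower (17.4%, beside 22.4%).

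Of 22 genes that act downstream of adhesion receptors, 20 were tested, and 5 were higher and 5 lower in brush than in EpCAM+ cells, 25% in each direction beside 18.3% and 22% of all genes, with a median log2 fold change of −0.14. The adaptor Elmo1, a partner of Adgrb1, was higher by 3.60 ± 0.44 (adjusted p = 5.85e-07), the G protein gene Gna12 by 1.89 ± 0.45 (adjusted p = 0.00151) and the arrestin gene Arrb1 by 1.75 ± 0.43 (adjusted p = 0.00218), each on the log2 scale. The scaffold gene Baiap2 gave −4.38 ± 0.43 (adjusted p = 2.46e-08), the Rac exchange factor gene Tiam1 −2.93 ± 0.35 (adjusted p = 3.59e-07) and Rac1 itself −1.36 ± 0.31 (adjusted p = 0.000946). Against CD45+ cells 5 were higher (25%, beside 23.4% of all genes) and 9 lower (45%, beside 22.4%). Elmo1 was among those lower in brush cells (−2.08 ± 0.44, adjusted p = 0.000369). It held 35.3 CPM in brush cells and 149 CPM in CD45+ cells, where Adgrb1 was at 0. Of 9 partners of Adgrv1 at the ankle links, 4 were tested, with 0 called in brush against EpCAM+ cells, beside 40.3% of all genes. In brush against CD45+ cells 2 of them were higher, beside 23.4%, and 1 lower, beside 22.4%. Counts over 4 genes are too few to set against such shares.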

How the data were processed

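RNA sequencing libraries of sorted tracheal cells were analysed (7 brush, 7 EpCAM+ and 4 CD45+), grouped by the labels. The authors deposited read counts (whole numbers) of 26327 gene symbols for the 18 libraries, and, per the file headers, 1 RSEM table per library with expected counts and TPM. Per the submitters' processing notes the tools include STAR 2.4.2a, RSEM 1.2.21 and featureCounts and the build is mm10; no source used here gives the annotation or strand setting of the counting.

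Counts were tested with edgeR 4.0.16 (quasi-likelihood F test, TMM scaling, filterByExpr by group) in R 4.3.3, in 1 fit over the 18 libraries with group as the only term. The filter kept 13418 genes and removed 12909. A call needs an adjusted p (Benjamini-Hochberg, all genes tested) below 0.05, and standard errors are log2 fold changes, taken without sign, over the square root of F. Intervals of count ratios are exact at 95% and cover counting error only. The code was tested on simulated counts.

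1 of the 27 members is not reported here and is left out of all counts and sums over members; the other tested members were all described. Of the partner lists, Celsr1, Celsr2, Celsr3 and up to 3 called genes a direction with the largest change were named. Cd55 was named after its values were seen. The members and lists were chosen with earlier results of these data known. Alternatives were DESeq2 1.42.0, limma 3.58.1 voom, other size factors, filters, counts, libraries and a replicate block.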

Additional observations from a re-analysis of the deposited data

Results flagged for a closer look

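Members with at least 10 counts in a group of 4 to 7 libraries were examined for a library standing apart by Dixon's criterion at 95%, in 40 groups in all, of which chance alone marks about 1 in 20. It marked 6. Adgrg6 stood at 234 CPM in brush replicate 2, against 41.6 to 74.0 CPM in the other brush libraries, and Adgrg2 at 155 CPM in EpCAM+ replicate 5, against 53.6 to 75.0 CPM. Among EpCAM+ libraries replicate 5 also had the highest sum of the club and goblet markers (129000 CPM, others 23880 to 86970). It had the lowest sum of the basal markers (3838 CPM, others 5097 to 6082) and the lowest share of ribosomal RNA counts (12.2%). Its sum of the ciliated markers was the highest (1433 CPM, others 341 to 755), and most of it was Tppp3 (1313 CPM). Ccdc153, Dynlrb2 and Rsph1 were also highest in replicate 5, at 46.0, 35.5 and 34.55 CPM. Foxj1 and Dnah5 went the other way and were lowest there among EpCAM+ libraries, at 1.85 and 1.54 CPM. The part of cell make-up or RNA quality in the level of Adgrg2 was not tested. Adgrf5 stood at 17.0 CPM and Adgre5 at 5.66 CPM in brush replicate 4, the shallowest brush library, where 1 count is worth 1.89 CPM. These were 9 and 3 counts. By TPM neither was high there: Adgrf5 held 1.18 TPM (brush range 0.54 to 1.49), and Adgre5 0.84 TPM, its lowest brush value (up to 3.75). Adgrb1 stood at 3.46 CPM in EpCAM+ replicate 6 and Adgrf2 at 2.16 CPM in EpCAM+ replicate 4. In those libraries the neuroendocrine gene Chga stood at 1034 and 1420 CPM, against 1.30 to 68.4 CPM in the other EpCAM+ libraries, while another neuroendocrine marker, Calca, was highest in replicate 5, and the part of neuroendocrine cells in these levels was not tested.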

How the results depend on the processing

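Of 51 results (17 tested members in 3 comparisons), 37 were called and 36 of these kept their call and direction in every alternative that tested them. The exception was Adgrb1 in EpCAM+ against CD45+ cells, with log2 fold changes of 1.28 (voom, adjusted p = 0.282), 3.81 (replicate block, 0.0778) and 4.54 (without CD45+ replicate 3, 0.0697). Of 14 results not called, 2 became called under some alternatives, both in brush against EpCAM+ cells: Adgre1 (DESeq2 2.32, replicate block 2.70, RSEM expected counts 3.97, without brush 4, EpCAM+ 5 and CD45+ 1 3.37) and Adgrg1 (−0.61 without those 3 libraries). Celsr2 was lower in brush than in EpCAM+ cells with DESeq2 (−0.75), voom (−0.72) and the 2 groups alone (−0.72). The count of members lower in brush than in EpCAM+ cells was 1 with a minimum of 10 CPM, with the 2 groups alone or with RSEM expected counts, since Adgrg3 was then not tested, and 4 without those 3 libraries (with Adgra2 and Adgrg1). The count lower in brush than in CD45+ cells was 8 with no minimum (with Adgra2, Adgre4, Adgrg4 and Adgrl4). Leaving out 1 library at a time gave 8 to 9 higher and 2 to 3 lower members in brush against EpCAM+ cells. The added higher member was Adgre1 or, without CD45+ replicate 2, 3 or 4, Adgrd1. Brush against CD45+ cells gave 12 and 4 to 6, and EpCAM+ against CD45+ cells gave 6 to 7 and 4 to 5.

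Results that were not called and changed sign were Adgrg5 in brush against EpCAM+ cells (0.10 with voom, −1.30 to 0.00 leaving out 1 library, the latter EpCAM+ replicate 7) and Adgrv1 there (−0.58 to 0.11, the latter without EpCAM+ replicate 6). In EpCAM+ against CD45+ cells they were Adgrb2 (0.03 with the replicate block, 0.06, 0.09 and 0.02 without EpCAM+ replicates 2, 3 and 7, and −0.85 to 2.03 over all libraries left out), Adgrb3 (−0.56 with voom, −0.25 with the block, −0.46 with RSEM expected counts) and Adgrf2 (−0.09 with voom, −0.97 to 4.08 leaving out 1 library, the former EpCAM+ replicate 4). The cause was not tested. The deviations of same-numbered brush and EpCAM+ libraries from their group means had correlations of −0.0691 to 0.235, above 0.1 in 4 of 7 pairs. Those with CD45+ libraries were −0.198 to 0.101 for brush and −0.18 to 0.263 for EpCAM+ cells, above 0.1 in 1 of 4 pairs each. What the number marks is not given in the sources used here, and a pairing was not established. With that number as a block 9 members were higher and 2 lower in brush than in EpCAM+ cells.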
